A study of Xenopus laevis with 3 samples.

Results

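The 215 clones described here are those with the strong negative ratios in a comparison of Xenopus laevis embryos exposed to an agonist or to an antagonist of the retinoic acid receptor. They were chosen by their measured ratios: a mean log2 ratio of -1 or lower over 3 arrays, after each array was centred on its median, with a value below 0 on every array. That makes 1.04% of the 20618 clones on the arrays. Xenopus laevis is the African clawed frog. Embryos received 1e-06 M TTNPB, a synthetic agonist of the retinoic acid receptor, or 1e-06 M AGN193109, an antagonist of the same receptor, from stage 7 (blastula) to stage 11 (gastrula). They were kept in dishes of 25 at 16 to 19 °C, and RNA of whole embryos was enriched for poly A. The series title names the neurula, the later stage at which the neural plate folds, but the stage of RNA collection is not stated. Each of the 3 arrays carried TTNPB-treated embryos in one channel and AGN193109-treated embryos in the other, so the 3 arrays form 1 group, and vehicle-treated embryos were in neither channel.

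The labels do not say which channel was the numerator of the ratio, or whether it was the same on every array. A negative value therefore shows a ratio below the median of its array, not which treatment had more transcript. The word "lower" below refers to the deposited sign. The dyes are not stated either, and the part of dye in the ratios was not tested. The clones have no gene names here: a RefSeq table of 44456 genes held 0 of the 20618 clone names. A clone name such as XL018f06 gives its source plate (18), well row (f) and well column (6), and clones are named by it. Several clones may carry the same transcript, so clones are not independent observations, and the labelled tissue could not be checked against marker genes.

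Retinoic acid receptors bind DNA as partners of retinoid X receptors. Without ligand or with an antagonist such as AGN193109 they tend to recruit corepressors, and with an agonist they recruit coactivators, so the compared treatments push the same receptor in opposite ways. In the frog embryo retinoid signalling is known for its part in patterning the body axis from head to tail: hox and cdx genes of the hindbrain and trunk and the retinoic acid-degrading enzyme gene cyp26a1 are well-known targets that rise with it, and markers of the forebrain and cement gland are reduced by excess retinoid. Which of the clones below, if any, carry such genes was not analysed here.

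Ratios of the 3 arrays went together over all clones, with Pearson's r between 0.554 and 0.692 (20618 clones, which are not replicates). All 215 clones had a limma adjusted p under 0.05, as did 10.8% of all clones on the negative side. In limma's test against a 1.5-fold difference, 116 clones passed on the negative side, 0.563% of all clones. All 116 were among the 215, so no other clone passed on that side. Limma called 2228 clones negative in all, 871 without array 1 and 0 without moderation of the variances (2051 at an unadjusted p under 0.05). The counts of the 215 rest on the values that chose the clones and are given as a description only.

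Most of the 215 clones lay close to the 2-fold limit of the choice, and a small set lay far beyond it. Their mean log2 ratios had a median of -1.22, a 2.33-fold difference. A mean between 2-fold and 2.38-fold was held by 117 clones, one from there to 2.83-fold by 51 and one from there to under 4-fold by 20. Beyond that, 19 clones reached 4-fold to under 8-fold and 8 clones 8-fold or more. On the positive side, 185 clones reached 2-fold with 1 sign, 27 of them 4-fold and 8 of them 8-fold.

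**Figure D1:**
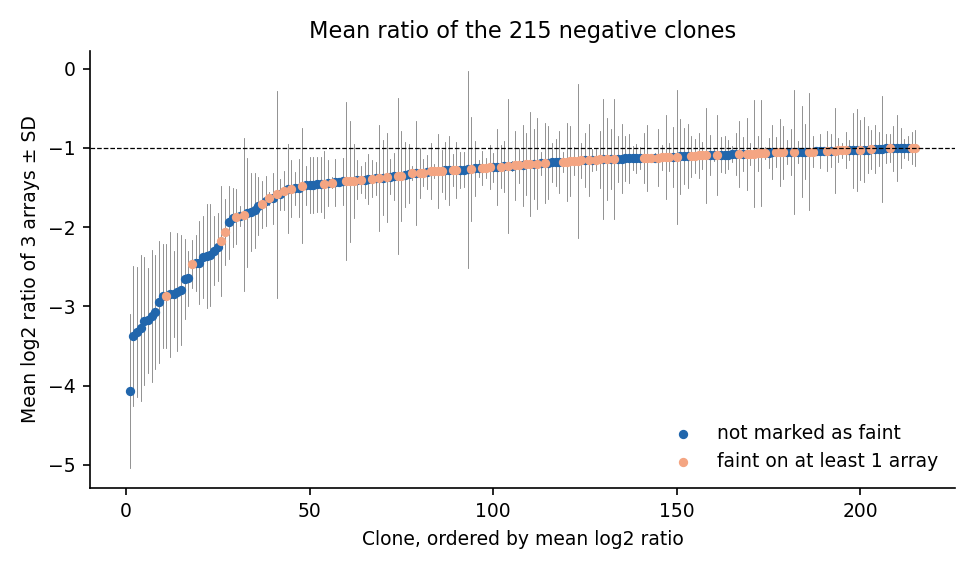
Mean log2 ratio of each of the 215 negative clones over 3 arrays (points) with 1 SD to either side (bars), ordered from the lowest mean, with the 2-fold limit of -1 as a dashed line. The points flatten towards -1, and the clones of 4-fold or more at the left include 4 that were marked as faint on at least 1 array.

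The 8 clones of at least 8-fold came from 8 source plates and were far below 0 on every array. XL018f06 had the lowest mean, with log2 ratios of -5.08 on array 1, -3.98 on array 2 and -3.14 on array 3, a mean of -4.07 ± 0.97 (SD, n = 3) or 16.7-fold. XL044h18 read -4.30, -3.27 and -2.56 on arrays 1, 2 and 3, with a mean of -3.37 ± 0.88 (SD, n = 3). Array 1 was the lowest and array 3 the highest in both clones, and neither came near 0.

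The nearest profiles to that of XL018f06 over the 3 arrays belonged to XL044h18, XL037g01 and XL055g21, at Euclidean distances of 1.21, 1.31 and 1.38 log2 units. XL037g01 read -4.20, -3.19 and -2.58 on arrays 1, 2 and 3, a mean of -3.32 ± 0.82 (SD, n = 3). XL055g21 read -4.18, -3.28 and -2.35, a mean of -3.27 ± 0.92 (SD, n = 3). The profiles of XL044h18, XL037g01 and XL055g21 lay closer to one another than to XL018f06 on every array, and XL018f06 was lower than them on all 3.

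The other 4 clones of this size had means between -3.18 and -3.07. XL014h01 read -4.05, -3.05 and -2.46 on arrays 1, 2 and 3, and XL002f04 read -3.94, -2.88 and -2.71. XL051e24 read -3.87, -3.26 and -2.23, and XL047e05 read -3.85, -2.92 and -2.44. All 8 clones thus followed the same order, lowest on array 1 and highest on array 3, and array 3 lay above array 1 by 1.23 to 1.94 on the log2 scale.

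The same order held in most clones of at least 4-fold. Of these 27 clones, 24 (88.9%) were lowest on array 1, then array 2, then array 3. In the 24, the log2 ratio on array 1 ran from -5.08 to -2.72 with a median of -3.43. On array 2 it ran from -3.98 to -2.15 with a median of -2.88, and on array 3 from -3.14 to -1.70 with a median of -2.20. The step from array 1 to array 2 had a median of 0.67 (0.031 to 1.09), and the step from array 2 to array 3 a median of 0.54 (0.092 to 1.35). The ranges of the 3 arrays overlapped between clones. The 24 clones were picked by this order, so the sign of both steps was fixed by that choice.

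Scaling the arrays to an equal median absolute value over all clones, which does not make their lowest values equal, left 24 of 27 clones in this order. Quantile normalisation, which gives every array the same set of values and so the same lowest values, left 6 of 27. The order of the arrays in these clones thus depends on that choice. On the positive side, 8 of 27 clones of at least 4-fold were farthest from 0 on array 1, then 2, then 3, and 12 on array 1, then 3, then 2. Array 1 was the farthest from 0 in 20 of these 27 positive clones and in 24 of the 27 negative clones, so both sides shared that trait. The median SD between arrays was 0.26 in the positive clones, against 0.66 for the 27 negative clones. The difference between the sides was not tested.

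The 3 clones of at least 4-fold outside the order were XL054h24, XL001f20 and XL013i05, named after their values were seen. XL054h24 was lowest on array 2, with -2.74, -3.11 and -2.11 on arrays 1, 2 and 3. XL001f20 read -1.66, -1.91 and -2.96 and XL013i05 read -2.05, -1.66 and -2.49, so both were lowest on array 3. Both were marked as faint, on 3 and 2 arrays, as were 2 of the 24 clones that followed the order. Among clones of at least 4-fold, XL003e05 varied least between arrays, with -2.78, -2.45 and -2.18 (mean -2.47 ± 0.30, SD, n = 3), followed by XL021p09 with -3.04, -2.52 and -2.39 (mean -2.65 ± 0.34, SD, n = 3). XL003e05 was marked as faint on 2 arrays, and XL021p09 was not marked as faint. XL018f06 and XL055g21 varied most.

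**Figure D2:**
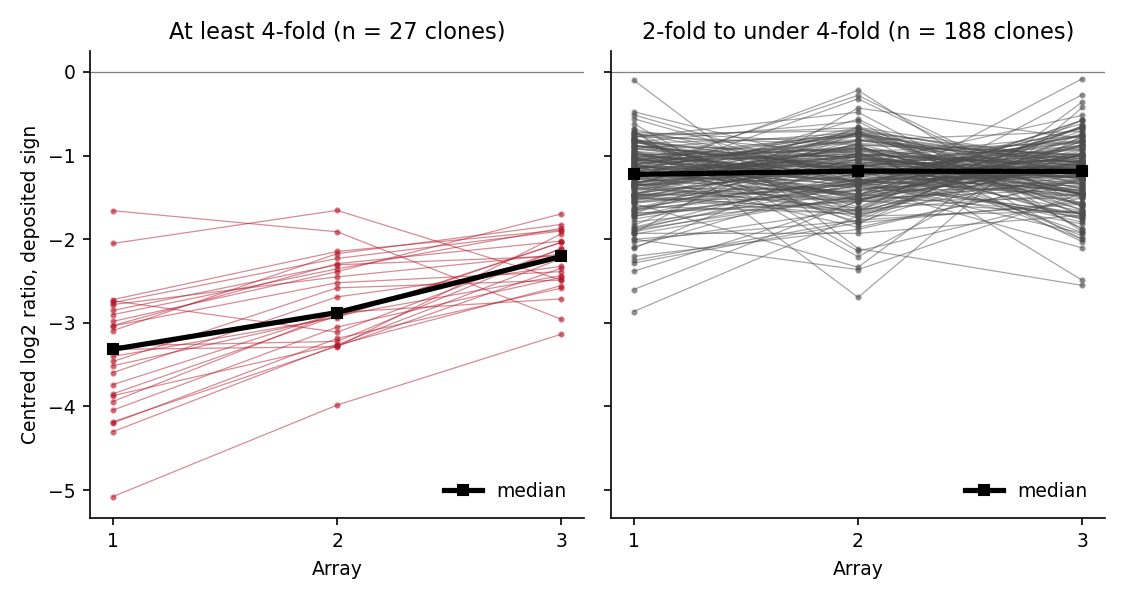
Centred log2 ratio (deposited sign) of each negative clone on arrays 1, 2 and 3, with 1 thin line per clone and the median as a thick line, for the 27 clones of at least 4-fold (left) and the 188 clones from 2-fold to under 4-fold (right). The median of the larger clones moves from -3.32 on array 1 to -2.21 on array 3, and that of the smaller ones from -1.23 to -1.19.

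The 188 clones from 2-fold to under 4-fold had no common order of the arrays. Their medians were -1.23, -1.19 and -1.19 on arrays 1, 2 and 3. Array 1 was the lowest in 67 clones, array 2 in 56 and array 3 in 65, and 35 (18.6%) followed the order of the larger clones. The order was more frequent towards 4-fold: it was followed by 17 of the 117 clones under 2.38-fold, by 8 of 51 in the next class and by 10 of the 20 clones from 2.83-fold to under 4-fold.

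A 2-fold mean did not imply 2-fold on every array. Of the 215 clones, 85 (39.5%) were at -1 or lower on all 3 arrays. These were 10 of the 117 clones under 2.38-fold, 31 of the next 51, 17 of the next 20 and all 27 of at least 4-fold. Among the positive clones of at least 2-fold, 118 of 185 (63.8%) passed 2-fold on every array. The SD between arrays had a median of 0.35 in the 215 negative clones, with a range of 0.024 to 1.31, and of 0.23 in the 185 positive clones, against 0.19 over all clones. The highest single values of a negative clone were -0.099 on array 1, -0.22 on array 2 and -0.080 on array 3, so some clones stood near 0 on 1 array.

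The clones at the limit of the choice had no gap between them. Just inside it were XL047f07, with -1.10, -1.13 and -0.77 on arrays 1, 2 and 3, and XL037g05, with -1.16, -0.74 and -1.10, with means of -1.0007 and -1.0006. Just outside were XL001f07, with -0.87, -1.08 and -1.04 and a mean of -0.998, and XL052h13, with -0.70, -0.94 and -1.33 and a mean of -0.99.

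A further 3 clones had a mean of -1 or lower but a positive value on 1 array, and were left out by the rule. XL025d19 read -3.47 on array 1, 0.21 on array 2 and -0.12 on array 3, so that array 1 alone set its mean of -1.13. XL007a10 read 0.16, -2.83 and -0.47, and array 2 supplied most of its mean of -1.05. XL011a09 read 0.29, -2.08 and -1.22, a mean of -1.01.

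To see whether the ratios held on an array that had no part in the choice, clones were chosen by the same rule on 2 arrays and read on the one left out. Arrays 2 and 3 chose 245 clones with a median of -1.20 over those arrays. On array 1 their median was -1.07, 236 of them (96.3%) lay below 0 and 137 (55.9%) lay at -1 or lower, a level reached by 1.36% of all clones on that array. Nearly all clones of this 2-fold choice thus kept their sign, and their ratios were on the whole smaller on the array left out. The arrays carry the same clones and the same kind of comparison and may be technical repeats. A bias that they share would keep its sign too, so these values cannot tell it apart from treatment.

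The other choices gave like values, and the 3 sets share many clones. Arrays 1 and 3 chose 245 clones, which had a median of -1.01 on array 2, with 238 (97.1%) below 0 and 125 (51.0%) at -1 or lower, against 1.82% of all clones. Arrays 1 and 2 chose 240 clones, which had a median of -1.01 on array 3, with 225 (93.8%) below 0 and 122 (50.8%) at -1 or lower, against 1.69% of all clones. The highest value on the array left out was 1.73, on array 3. By the centring, as many of all clones lay below 0 as above it on each array.

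Clones were also chosen at 4-fold on 2 arrays. The 27 chosen on arrays 2 and 3 had a median of -3.32 on array 1, where 26 were at -1 or lower and 25 at -2 or lower. The 27 chosen on arrays 1 and 3 had a median of -2.88 on array 2, where all 27 were at -1 or lower and 25 at -2 or lower. The 32 chosen on arrays 1 and 2 had a median of -2.07 on array 3, where 30 were at -1 or lower and 19 at -2 or lower, while 1 was above 0, at 1.26. At the level of the choice, array 3 thus had the lowest count of the 3. Over the arrays used for the choice, the medians of these sets were -2.51, -2.71 and -2.85. The median ratio on the array left out was thus smaller than these on array 3 only, and larger on arrays 1 and 2.

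**Figure D3:**
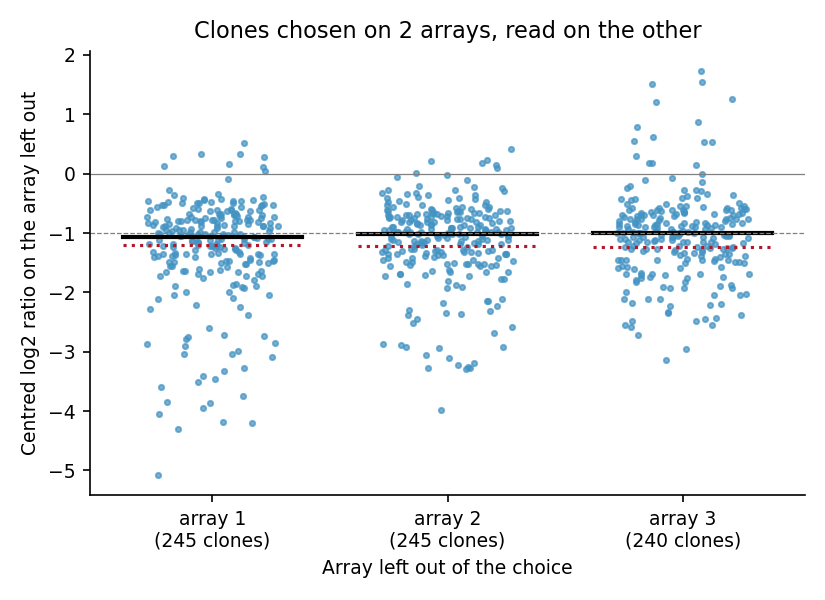
Centred log2 ratio on the array left out, for clones chosen by a mean of -1 or lower and a value below 0 on both other arrays (1 point per clone; horizontal spread is for display only). Solid lines mark the median on the array left out (-1.07, -1.01 and -1.01), and dotted lines the median over the arrays used for the choice (-1.20, -1.22 and -1.24).

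Faint features were frequent among the smaller ratios. A feature was called faint where its deposited value resolved to a ratio of whole numbers of at most 600, which was read as low signal, since no intensities were used here. Of the 215 negative clones, 92 (42.8%) were faint on at least 1 array, compared with 11.4% of all clones and 8 of the 185 positive clones (4.32%). On all 3 arrays 54 of them were faint, among 291 such clones in all. Of the 2347 faint clones, 3.92% were among the 215, and of the 18271 others 0.673%. The mark comes from the same deposited values as the ratios, and its part in the ratios was not tested.

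By size, the share of faint clones was 57 of 117 under 2.38-fold, 24 of 51 in the next class, 7 of the 20 up to 4-fold, 4 of the 19 from 4-fold to under 8-fold and 0 of the 8 beyond. Both whole numbers must be at most 600, so the larger a ratio, the fewer the pairs of numbers that can give it. The mark is thus harder to meet at larger ratios, and these shares do not compare signal between the classes. The median mean ratio was -1.17 in the 92 faint clones and -1.26 in the 123 others. On the array left out of the choice, faint clones had medians of -0.98, -0.92 and -0.98 on arrays 1, 2 and 3, and the others -1.16, -1.09 and -1.09. The medians on the array left out were thus negative in both kinds of clone. The faint mark also used the array left out, and the part of low signal in these values was not tested.

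The 215 clones came from 50 of the 55 source plates, with 0 to 15 clones a plate and a median of 3. Plates 47, 1, 50, 48 and 4, chosen as those with the highest share, held 57 of them (26.5%) and 9.05% of all clones. Of the 57, 37 were faint and 5 were of at least 4-fold. After plate, row and column medians had been removed, 46 clones of these plates met the rule. By plate, in the order given, it was 14, 5, 8, 9 and 10, against 15, 11, 11, 10 and 10 before. In the same order, 18.6%, 24.4%, 13.2%, 16.3% and 19.7% of all clones on the plates were faint. On plate 47, 13 of the 15 were faint. The 27 clones of at least 4-fold were spread over 24 plates, with no more than 2 from any plate.

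Well rows differed as well. Row h held 35 of the 215 among 1315 clones (2.66%) and row e 24 among 1307 (1.84%), while rows c and j held 6 each (0.459% and 0.461%). In row e the median of all clones on array 2 was -0.40, and after plate, row and column medians had been removed 14 clones of row e met the rule. In row h the medians of all clones were -0.084, 0.0029 and -0.061 on arrays 1, 2 and 3, and 28 clones met the rule after removal. Row h also held 197 faint clones, and 17 of its 35 were not faint. That was the highest count of faint clones of any row, and row b held 195 faint clones and 11 of the 215. Row e, with 24 of the 215, held 119 faint clones. Row m, with 19 of the 215 and a median of -0.35 on array 2, held 105, and 11 of its clones met the rule after removal. Well column 1 had the most of any column, with 20 among 859 clones (2.33%), and 18.2% of its clones were faint. How far plate position and faintness set these counts was not tested.

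Removing the position medians from all clones left 187 that met the rule, 170 of which were among the 215. The 45 that no longer met it all came from the range of 2-fold to under 4-fold and had means of -0.997 to -0.74 after removal. All 27 clones of at least 4-fold still met the 2-fold rule.

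**Figure D4:**
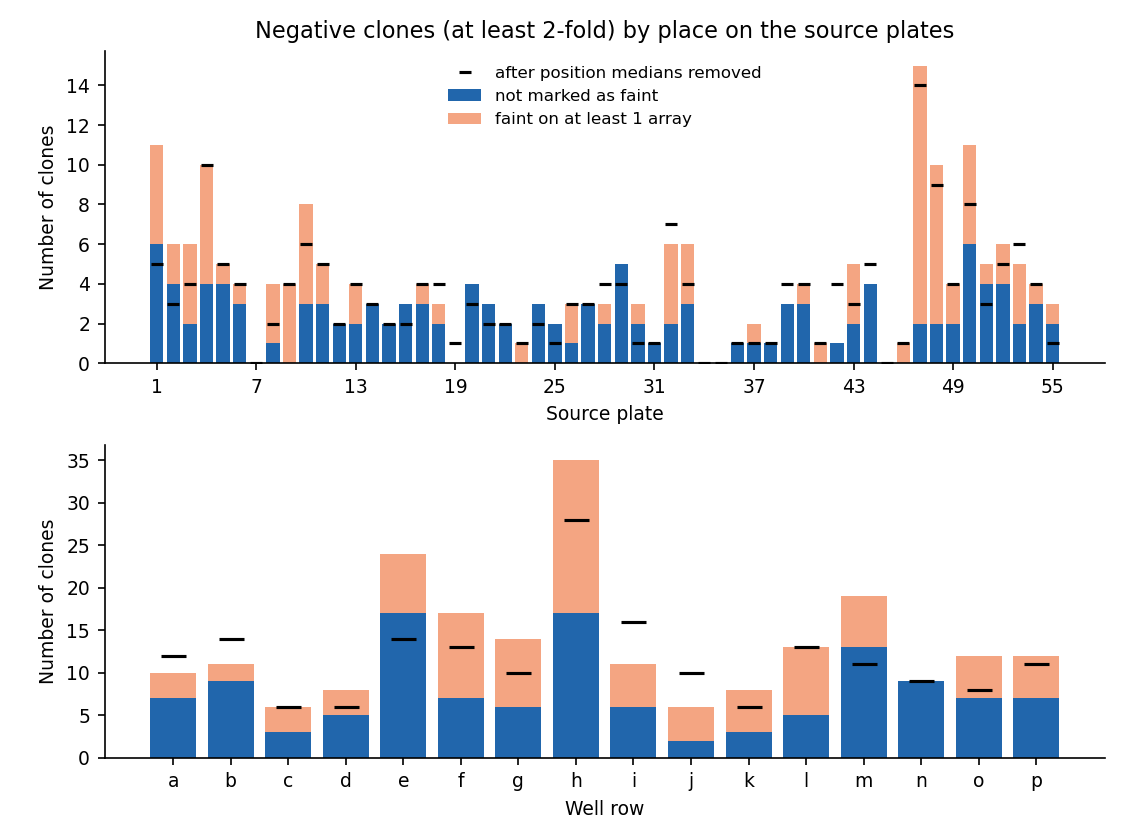
Number of the 215 negative clones from each source plate (top) and each well row (bottom), split into clones not marked as faint (blue) and faint on at least 1 array (orange); black dashes give the number that met the rule after plate, row and column medians were removed. Plate 47, with 15, and row h, with 35, stand highest.

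The wells beside the 27 clones of at least 4-fold were read as well, a choice made after the values were seen. In the next well row of the same column, 4 of 24 neighbouring clones (16.7%) were themselves among the 215, which make up 1.04% of all clones. There 7 (29.2%) had a mean of at least 1.5-fold below 0, a level reached by 5.10% of all clones. In the row before, 0 of 24 neighbours were among the 215, and none was at 1.5-fold. At 2 rows before, 0 of 22 were among the 215 and 1 was at 1.5-fold. At 2 rows after, 1 of 24 was among the 215 and 2 were at 1.5-fold. In the column before, 1 of 25 neighbours was among the 215, and in the column after 0 of 25, and 3 of 25 were at 1.5-fold in each. Beside the 188 smaller clones, 33 of 174 neighbours (19.0%) were at 1.5-fold in the row before. In the row after it was 24 of 166 (14.5%). The 33 include the larger clones of the 4 pairs named below, so these pairs are counted from both sides. For the smaller clones it was 31 of 166 (18.7%) in the column before and 29 of 179 (16.2%) in the column after. Beside the 27 larger clones the median of the neighbours was near 0 in every one of these wells. It was -0.077 in the next row and -0.057 in the row before, so most neighbours in the next row had no such ratio.

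The 4 pairs were XL006m02 and XL006n02, XL050a03 and XL050b03, XL029i09 and XL029j09, and XL044h18 and XL044i18. XL006m02 had a mean of -2.85, and its neighbour XL006n02 read -2.28, -1.80 and -1.55 on arrays 1, 2 and 3. XL050a03 had a mean of -2.87, and XL050b03 read -2.38, -1.55 and -1.51. Both neighbours followed the array order of the larger clones.

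XL029j09 read -1.53, -1.11 and -1.45 beside a mean of -2.79 in XL029i09. XL044i18 read -1.02, -0.93 and -1.47 beside a mean of -3.37 in XL044h18. These neighbours did not follow that order, and none of the 4 neighbours was marked as faint. The 4 pairs were also found after position medians were removed. Around the positive clones of at least 4-fold, 0 of 27 neighbours in the next row and 0 of 22 in the row before reached 2-fold on the positive side. Neither difference was tested, and how the wells were laid out on the array is not given in the sources used here.

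**Figure D5:**
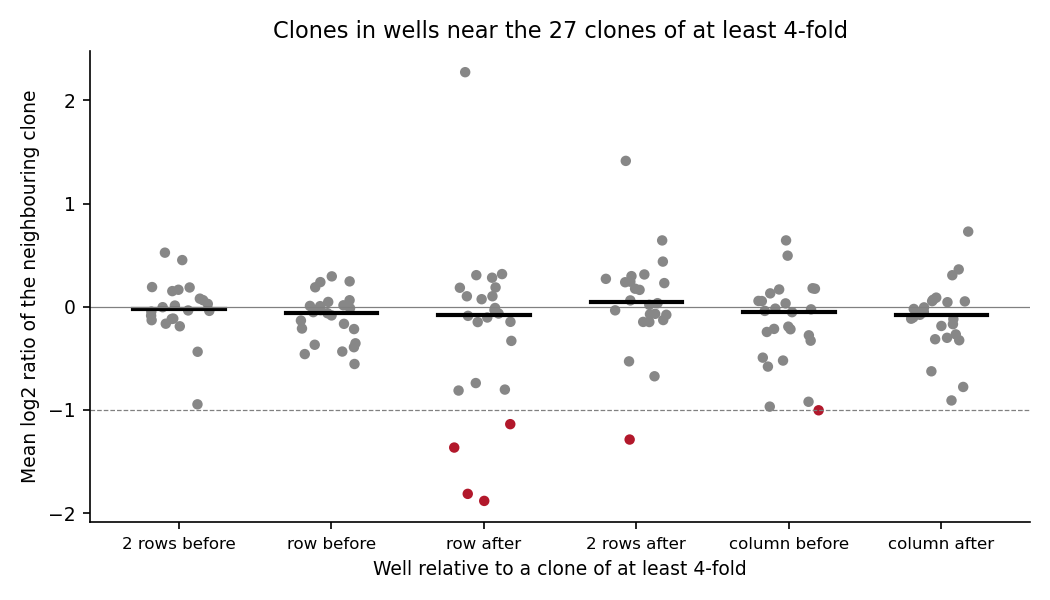
Mean log2 ratio over 3 arrays of the clones in wells near the 27 negative clones of at least 4-fold, by place relative to that clone on the source plate (1 point per neighbour, red at -1 or lower, black line for the median). The next row holds 4 red points and the row before none, while the medians stay near 0.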

How the data were processed

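The authors deposited 1 natural log ratio per feature and array for 20799 features on 3 two-channel arrays, without missing values. Nothing in the labels or the header states the log base, dyes, scanner, background correction or normalisation. The base was read from the values: of 168 differences between recurring values, 144 resolved to whole numbers up to 200 as a mean of 2 natural logs (relative tolerance 2.5e-09), 2 as 1 natural log and 0 as log2 or log10. Values were divided by the natural log of 2. The 181 features named Contr were left out, and each array was centred on the median of the 20618 clones.

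The clones, lists and rules were chosen with earlier results of these data known. Named were clones of at least 8-fold, those beside the 2-fold limit, those of at least 4-fold with extreme SDs, the 3 nearest to the largest and those failing on sign only. For the share of calls, limma 3.58.1 in R 4.3.3 (lmFit, eBayes, Benjamini-Hochberg over all clones, threshold 0.05) was fitted to all clones. The faint mark read each value as a mean of 2 natural logs. Per array, it took the constant that let most values resolve to whole numbers up to 600. Such whole numbers were found for 1020, 1320 and 1113 features on arrays 1, 2 and 3, and for 5, 8 and 10 after small random shifts. Position medians were removed by plate, row and column in 5 rounds. The labels do not say whether the arrays came from separate embryo batches, so their spread may be technical. Their number limits the precision. Alternatives covered centring, scaling, log base, position, faint clones, thresholds and leaving out each array.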

Additional observations from a re-analysis of the deposited data

Results flagged for a closer look

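The features named Contr, which were left out of the clones and whose content the names do not state, also held strong negative ratios. Of 181 such features, 6 (3.31%) met the same rule as the 215 clones, compared with 1.04% of all clones, with means of -1.86 to -1.10. The share also lay above 1.66% (3 of 181), a bound for a count of 0, which does not compare it with the clones. All 6 were marked as faint, as were 55 of the 181. Among faint features only, the rule was thus met by 6 of 55 Contr features and by 92 of 2347 clones (3.92%), a difference that was not tested. Among clones faint on all 3 arrays it was met by 54 of 291 (18.6%). On how many arrays the Contr features were faint is not given here. The median log2 ratios of all Contr features, relative to the clones, were -0.24, -0.41 and -0.13 on arrays 1, 2 and 3.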

How the results depend on the processing

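The number of negative clones, 215, stayed within 1.5 times of itself in 9 of 14 alternatives, and leaving out each array gave 240 to 245. The clones themselves changed more: 185, 182 and 177 of the 215 were kept without array 1, 2 and 3. The number became 54 with the values read as log2 and 85 with 2-fold required on every array. It became 27 at 4-fold, 1020 at 1.5-fold and 123 without faint clones. All of these changes follow by construction, and the 123 are those of the 215 not marked as faint. The 2228 clones called negative by limma became 116 in its test against 1.5-fold and 0 without moderation of the variances (2051 at an unadjusted p under 0.05). Leaving out each array gave 871 (without array 1) to 2004 (without array 3). The medians on the array left out became -3.32, -2.88 and -2.07 on arrays 1, 2 and 3 for clones chosen at 4-fold. The share at 2-fold on every array became 50.4% without faint clones, and the share marked as faint 32.6% where 2 arrays had to be faint, a setting chosen after the data were seen, as were the order, row h and neighbour alternatives. Row h held 17 negative clones without faint clones, the same 17 given above as not faint. Of 136 values for 17 named clones, 134 kept their sign and moved by less than the SD between arrays. The exceptions were XL001f07, at -0.80 with position removed, and XL025d19, whose mean ran from -1.80 to 0.046 with 1 array left out (positive without array 1, a move within its SD). Leaving out 1 of 3 arrays, or taking their median, cannot move a mean by its SD, so those settings could only change the sign. XL007a10, with a mean of -1.05, thus counted as kept at -0.158 without array 2. No paired analysis was possible because there is no second group of arrays to pair; each ratio already sets both treatments against each other within an array. With no intensities, signal over background has no value here.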
